A study of Homo sapiens with 16 samples.

Results

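The genes described here are 10 transcription factors that set B cell or plasma cell identity, PRDM1, POU2AF1, PAX5, EBF1, SPI1, SPIB, BCL6, BACH2, ID3 and MITF. They were taken by gene symbol as 10 of the 32080 symbols on the array, and are read by 17 of its 50599 probes. The list was chosen with earlier results of these data known. PRDM1 and POU2AF1 are treated as the 2 plasma cell factors and the other 8 as B cell stage factors, and the question was whether the B cell stage factors came back where the plasma cell factors fell. Where a gene had several probes, the probe with the highest mean over all arrays is called its main probe, and the others are given beside it.

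Both cell lines, RPMI-8226 and MM.1S, were established from human multiple myeloma, a malignancy of plasma cells. Each line was treated for 6 days with the solvent DMSO, with GSK126 at 1 μM, with UNC0638 at 1 μM, or with both inhibitors at 1 μM each, and each of the 8 groups held 2 biological replicates. GSK126 blocks EZH2, the enzyme that trimethylates lysine 27 of histone H3, and UNC0638 blocks G9a, which methylates lysine 9 of the same histone. Every RNA sample was labelled with Cy3 and hybridised to its own array, 16 arrays in all, so a value is the brightness of a spot. A level below is the log2 intensity of a probe minus the 75th percentile of its array, a difference is between the means of 2 groups on that scale, and every adjusted p is from limma with Benjamini-Hochberg adjustment over all probes tested in the line. A probe is said to be above background when the scanner software marked it as well above background. All arrays of a line lay on a single slide, so a difference between the untreated lines and a difference between slides cannot be told apart. In these bulk RNA samples, fewer cells of a type and less RNA per cell cannot be told apart either.

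PRDM1 encodes Blimp-1, the repressor that switches off the B cell programme when a B cell becomes a plasma cell, and POU2AF1 encodes OCA-B, the partner of the octamer factors at immunoglobulin promoters. PAX5 and EBF1 specify and maintain B cells, BCL6 and BACH2 hold the germinal centre state and restrain PRDM1, and Blimp-1 in turn represses PAX5 and BCL6. SPI1 (PU.1) and SPIB are related ETS factors of B cells, ID3 blocks the DNA binding of E proteins, and MITF has been described as a brake on plasma cell formation.

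Between 46.5% and 49.7% of the spots of an RPMI-8226 array and between 49.9% and 52.8% of those of an MM.1S array were above background. The correlation of replicates over the probes tested in each line was 0.985 to 0.991 in RPMI-8226 and 0.993 to 0.995 in MM.1S. The plasma cell label held in both lines, since 8 of 8 plasma cell marker genes were above background on all arrays. Their summed level, as intensity over the array's 75th percentile, was 290 and 335 with DMSO and 193 and 240 with the combination in RPMI-8226, and 541 and 552 against 375 and 385 in MM.1S. Markers of other blood cells were examined as well. In RPMI-8226 the summed level of 4 T cell markers, 3 of them above background on all arrays, was 0.407 and 0.477 with DMSO, 1.49 and 0.91 with GSK126, 4.66 and 3.96 with UNC0638, and 14 and 12.3 with the combination. That of 3 monocyte markers was 0.537 and 0.932 with DMSO, 3.37 and 5.64 with GSK126, 0.436 and 0.814 with UNC0638, and 3.63 and 4.84 with the combination, with FCGR3A above background on no array. NK cell markers gave 8.55 and 10.4 with DMSO, 6.03 and 7.46 with GSK126, 13.4 and 15.5 with UNC0638, and 7.16 and 8.92 with the combination. KLRD1 was above background on no array. Of the 2 NK cell markers tested, 1 was called higher with the combination, where 7.2% of all probes were. That gene was above background on no DMSO array. In MM.1S the T cell markers also moved, at lower sums, from 0.263 and 0.231 with DMSO and 0.298 and 0.235 with GSK126 to 0.761 and 0.879 with UNC0638 and 0.74 and 0.816 with the combination. Of the 3 tested there, 2 were called higher with UNC0638 and with the combination, where 12.8% and 22.2% of all probes were called higher. The monocyte markers lay between 0.13 and 0.167 in MM.1S and the NK cell markers between 0.575 and 1.42. The part of these genes in the results below was not tested.

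**Figure D1:**
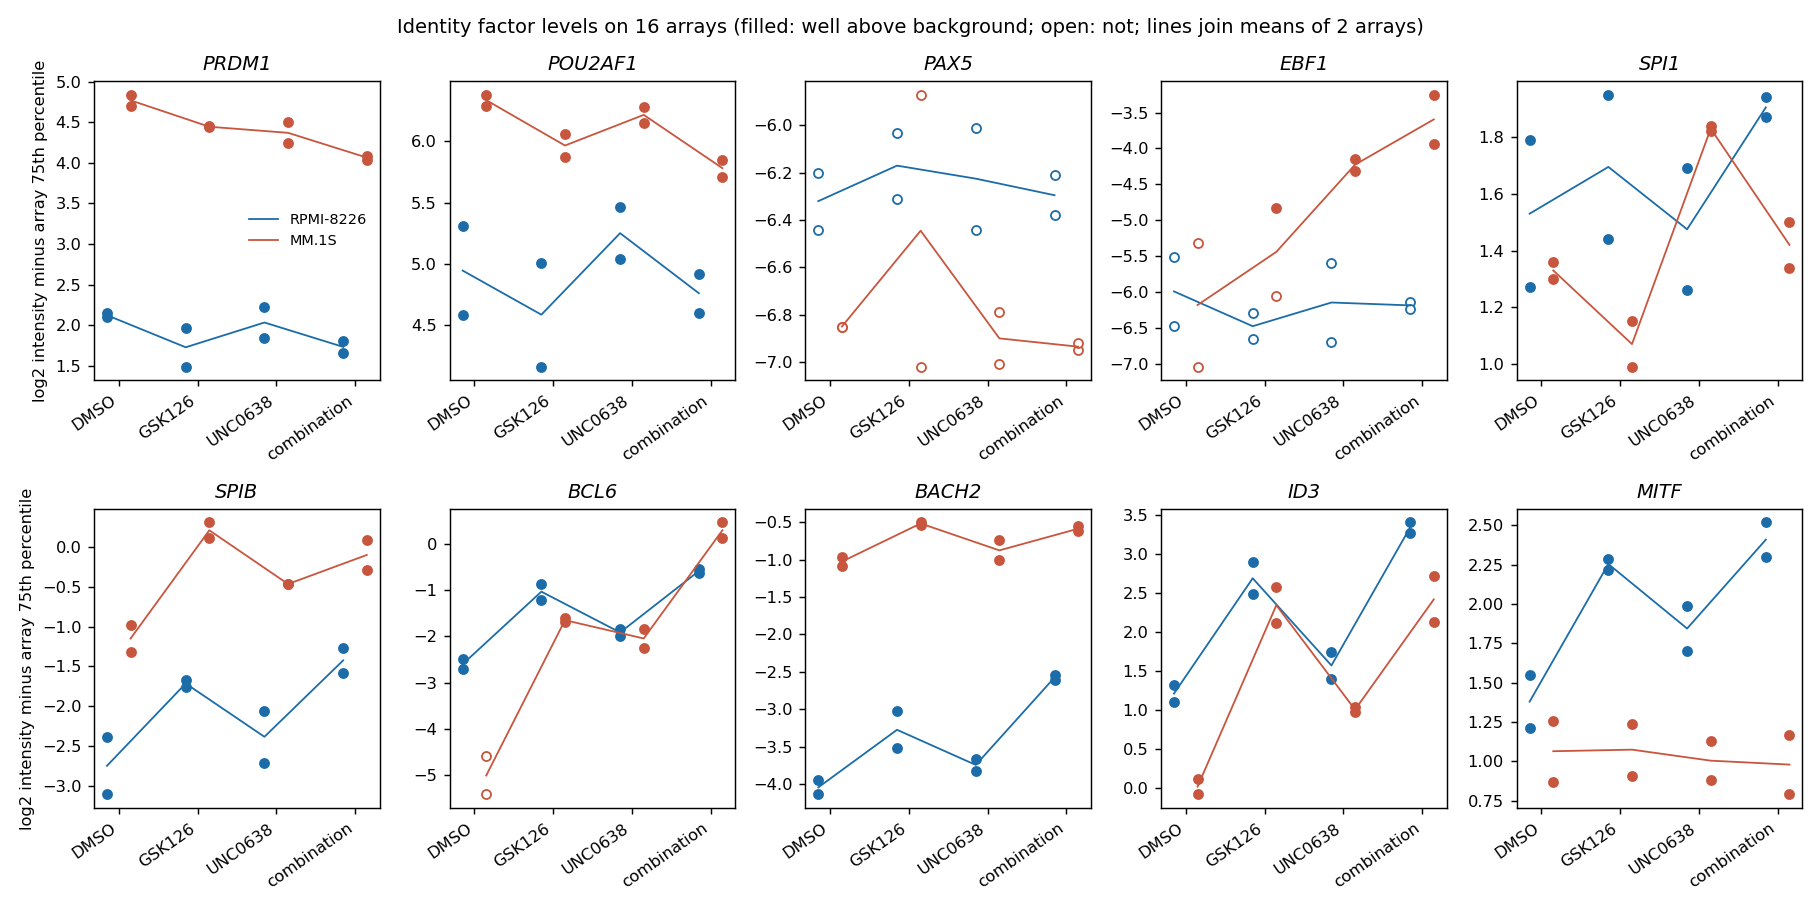
Level of each identity factor at its main probe, as log2 intensity minus the 75th percentile of the array, by treatment (DMSO, GSK126, UNC0638 and the combination) in RPMI-8226 (blue) and MM.1S (red). Each point is an array, open where the probe was not well above background, and lines join the means of 2 arrays. BCL6, ID3, SPIB and BACH2 lay higher with the combination than with DMSO in both lines, and PAX5 was open on all 16 arrays.

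With the combination, 5 B cell stage factors rose in each line against DMSO, of which BCL6, ID3, SPIB and BACH2 were shared, with MITF the other in RPMI-8226 and EBF1 the other in MM.1S. The plasma cell factors PRDM1 and POU2AF1 fell in MM.1S at their main probes, by 0.71 and 0.56 on the log2 scale, and the rises there ran from 0.44 for BACH2 to at least 32.1-fold for BCL6. In RPMI-8226 neither passed the test at its main probe, and PRDM1 was called lower at its second probe. PAX5 was not detected in either line. In RPMI-8226, 8 of the 10 genes had a main probe that passed the filter on dim probes and 5 were called, with 12.3% of all 23196 probes tested called, 7.2% higher and 5.15% lower. In MM.1S, 9 of the 10 genes were tested and 7 were called, 5 higher and 2 lower, with 53.9% of all 25100 probes tested called, 22.2% higher and 31.7% lower. The filter asked for signal above background in both replicates of some group, so a gene at background with DMSO entered only if a treated group showed it. This held for BCL6 and EBF1 in MM.1S, whose calls could only be higher. Over probes above background on every array of the line, 7 members were tested in MM.1S and 5 were called, BACH2, ID3 and SPIB higher and PRDM1 and POU2AF1 lower. Of all 21749 probes tested in that setting, 12664 were called in either direction. The median difference over all probes tested was -0.13 in RPMI-8226 and -0.12 in MM.1S.

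**Figure D2:**
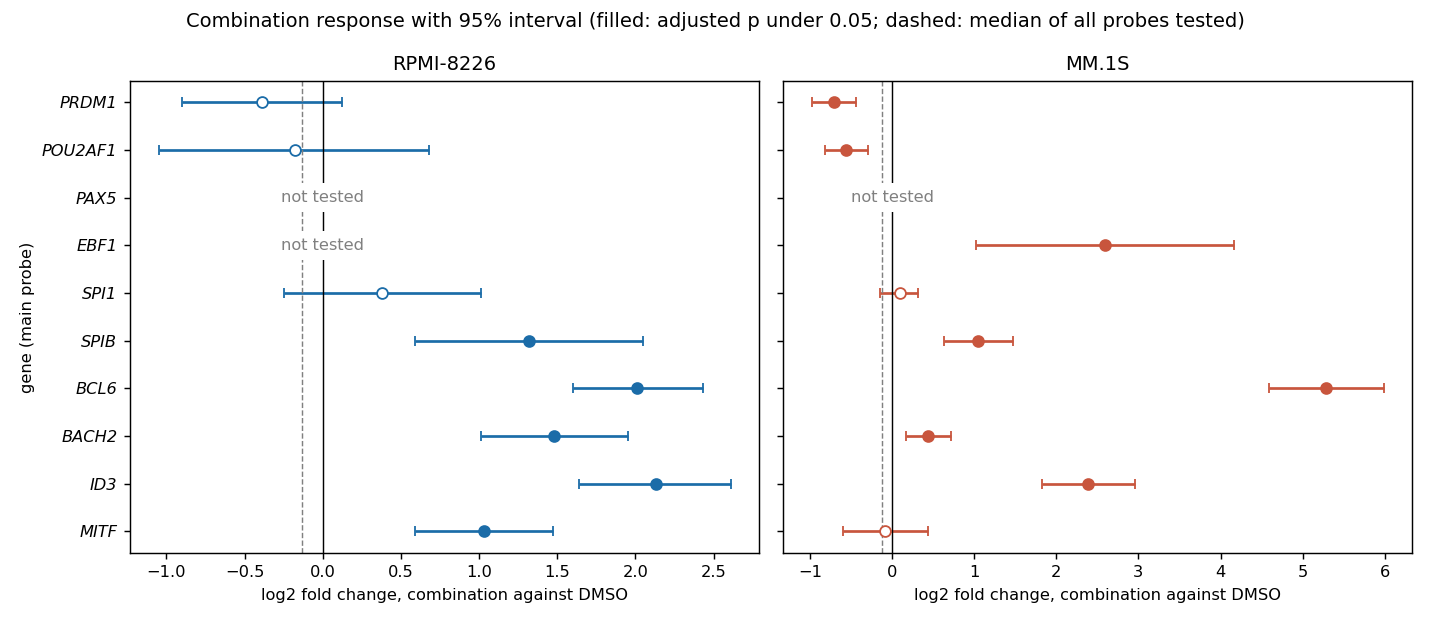
Difference between the combination and DMSO at the main probe of each gene, on the log2 scale, with its 95% interval from limma, in RPMI-8226 (left) and MM.1S (right). Filled points passed an adjusted p of 0.05 and the dashed line is the median over all probes tested. For BCL6 and EBF1 in MM.1S, DMSO was not above background, so the plotted values are fitted differences and not bounds. The called B cell stage factors lie to the right of 0, and PRDM1 and POU2AF1 lie to the left.

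The main probe of PRDM1 lay at chr6:106557662-106557721 (GRCh37, plus strand). In MM.1S its level was 4.84 and 4.70 with DMSO, 4.45 and 4.44 with GSK126, 4.50 and 4.24 with UNC0638, and 4.04 and 4.09 with the combination. The treated arrays all lay below both DMSO arrays, the combination was lowest, and the single inhibitors overlapped each other. The fall was 0.71 on the log2 scale with the combination (SE 0.11, adjusted p = 0.00287), which is 1.63-fold, and quantile normalization gave -0.39 (adjusted p = 0.0278). UNC0638 alone gave a fall of 0.40 (adjusted p = 0.0399). That call was lost in 7 of the 8 fits that left out an array, with each array but UNC0638 replicate 1, at differences between -0.47 and -0.27. It was also lost after quantile normalization (-0.24), with the percentile over commonly detected probes (-0.31), without the filter or with other sets of arrays (-0.40 each), and as the mean over probes (-0.48). GSK126 alone gave -0.32 (adjusted p = 0.125). In RPMI-8226 the same probe was at 2.10 and 2.15 with DMSO, 1.49 and 1.97 with GSK126, 1.85 and 2.22 with UNC0638, and 1.66 and 1.81 with the combination. Both combination arrays lay below both DMSO arrays, but the difference of -0.39 (SE 0.21, 95% interval -0.90 to 0.12) had an adjusted p of 0.257. PRDM1 transcript was above background on every array of both lines under every treatment.

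The second PRDM1 probe lay at chr6:106555123-106555182, and its deviations from the line means correlated with those of the main probe with r = 0.69 over 16 arrays. In RPMI-8226 it read 0.53 and 0.28 with DMSO, -0.13 and 0.26 with GSK126, 0.01 and -0.27 with UNC0638, and -0.47 and -0.42 with the combination. Here the combination was called lower, at -0.85 (SE 0.19, adjusted p = 0.038). The call was lost without DMSO replicate 1 or 2 (-0.72 and -0.98), UNC0638 replicate 1 or 2 (-0.85 in each case), or combination replicate 1 or 2 (-0.82 and -0.87). In MM.1S it read 2.56 and 2.33 with DMSO and 1.92 and 1.38 with the combination, a fall of 0.79 (SE 0.23, adjusted p = 0.0296). That call was lost without DMSO replicate 1 or 2 (-0.68 and -0.91) or combination replicate 2 (-0.53). Both PRDM1 probes thus fell in MM.1S, by similar amounts.

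POU2AF1 was above background on all arrays of both lines at its main probe, chr11:111223004-111223063 (GRCh37, minus strand). In MM.1S it read 6.29 and 6.38 with DMSO, 5.87 and 6.06 with GSK126, 6.28 and 6.15 with UNC0638, and 5.85 and 5.71 with the combination. The combination arrays were the lowest and did not overlap DMSO, and the fall was 0.56 (SE 0.11, adjusted p = 0.00663), which is 1.47-fold. This fall depended on the scaling. It was -0.10 after quantile normalization (adjusted p = 0.491) and -0.37 with the percentile over commonly detected probes (adjusted p = 0.0306), it kept its size with an adjusted p of 0.15 in a single fit over all 16 arrays, and the mean over the gene's kept probes was 0.29 in the other direction (adjusted p = 0.0635). In RPMI-8226 the main probe read 4.58 and 5.31 with DMSO and 4.60 and 4.92 with the combination, which overlapped (difference -0.18, 95% interval -1.05 to 0.68, adjusted p = 0.757).

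The second POU2AF1 probe, at chr11:111267532-111267591, went the other way in MM.1S. It read -4.38 and -3.97 with DMSO, -3.86 and -4.31 with GSK126, -3.30 and -3.36 with UNC0638, and -3.15 and -2.93 with the combination. The combination and UNC0638 arrays lay above both DMSO arrays, with rises of 1.13 (SE 0.20, adjusted p = 0.00453) and 0.84 (adjusted p = 0.0258), or 0.41 and 0.28 after normexp background correction. The UNC0638 call was lost without DMSO replicate 1 (0.64), UNC0638 replicate 1 (0.81) or UNC0638 replicate 2 (0.88). In RPMI-8226 its difference was 0.47 (adjusted p = 0.397). The deviations of the POU2AF1 probes did not follow each other (r = -0.04 over 16 arrays), so the direction given for POU2AF1 in MM.1S is that of its main probe.

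**Figure D3:**
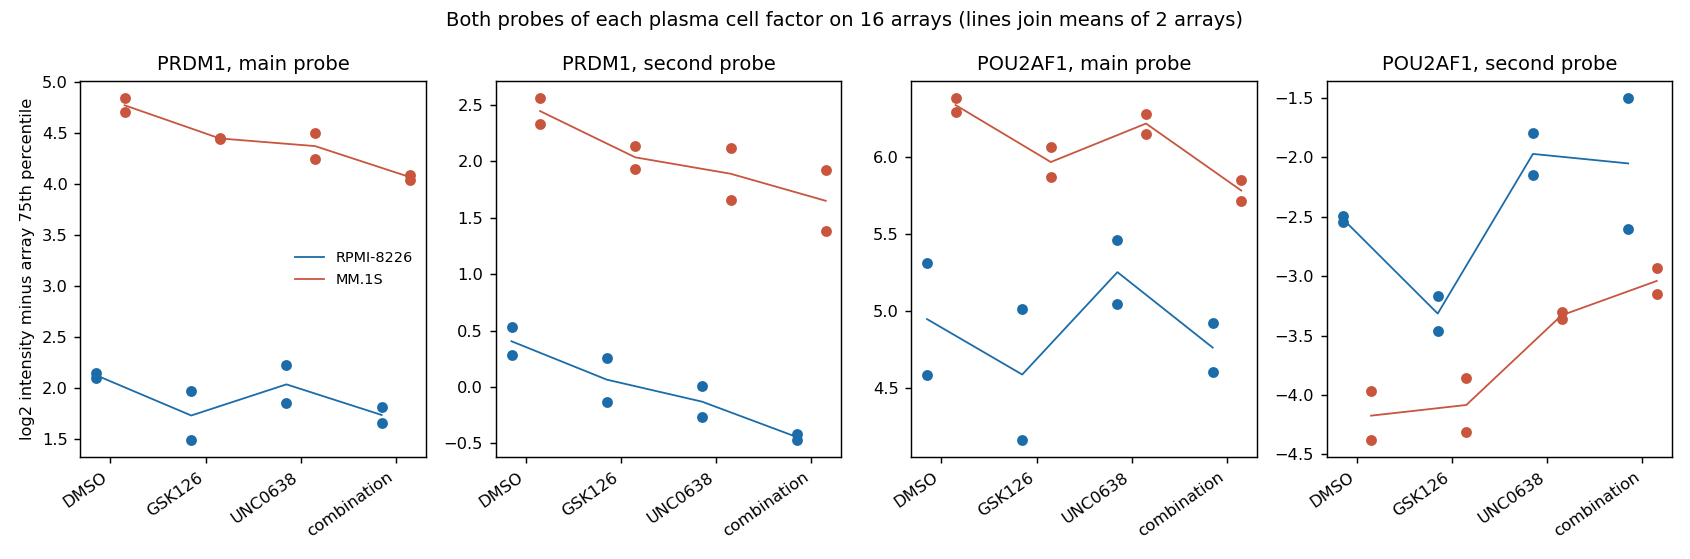
Levels of PRDM1 and POU2AF1 at the main and the second probe, as log2 intensity minus the 75th percentile of the array, by treatment in RPMI-8226 (blue) and MM.1S (red). Points are arrays and lines join means of 2. PRDM1 falls at both probes in MM.1S, while the second POU2AF1 probe rises there from -4.38 and -3.97 to -3.15 and -2.93.

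PAX5, the factor that commits a cell to the B lineage, was read by a single probe at chr9:36839029-36839088 (GRCh37, minus strand) and was above background on 0 of 16 arrays. Its values lay between -7.02 and -5.87, below background and so without an order, and it entered no test. A rise of PAX5 was not detectable at this signal.

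EBF1, which acts upstream of PAX5 in B cell specification, was above background only in MM.1S and only at its main probe, chr5:158123978-158124037 (GRCh37, minus strand). It read -5.32 and -7.04 with DMSO, neither above background, and -6.05 and -4.83 with GSK126, of which the second was. UNC0638 gave -4.14 and -4.31, and the combination gave -3.94 and -3.25, all above background. The combination was at least 2.28-fold higher than DMSO (adjusted p = 0.0165), where the bound sets the dim group at the lowest signal counted as above background or at its own value if higher. The call was lost without DMSO replicate 2 (fitted difference 1.73) or combination replicate 2 (2.24), and the fitted difference of 2.59 was 0.57 after normexp (adjusted p = 0.00316). UNC0638 alone was at least 1.47-fold higher but did not pass (adjusted p = 0.0661). The other EBF1 probes, at chr5:158126015-158126074 and chr5:158135032-158135091, were above background on no array, and in RPMI-8226 none of the 3 was.

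The promoter of EBF1 was examined for letters that the factors above recognise, in the RefSeq windows of 250 bases before to 50 after each start (GRCh38.p14). Windows were found for 8 of the 10 genes, 12 windows in all, and SPI1 and POU2AF1 were not matched. The Blimp-1 core was searched as AGNGAAAG, the ETS-IRF composite element as GGAANNGAA and the octamer as ATGCAAAT, on both strands. Of all 35116 windows, 7.99% held the first, 7.79% the second and 1.77% the third. EBF1 held the first and second, overlapping within the run of capitals shown here, PRDM1 held the second in its second window, ID3 held the first after its start, and no member window held the octamer. The EBF1 and PRDM1 stretches are shown because they are the matches that lie before a start, with the matched letters in capitals.
EBF1, chr5:159097957-159098014, minus strand: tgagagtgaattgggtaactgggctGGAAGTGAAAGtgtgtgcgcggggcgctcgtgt
PRDM1, chr6:106098904-106098940, plus strand: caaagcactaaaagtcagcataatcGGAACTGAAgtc

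SPI1, the ETS factor PU.1, was not called with the combination in either line. Its main probe, chr11:47376464-47376523 (GRCh37, minus strand), read 1.27 and 1.79 with DMSO and 1.94 and 1.87 with the combination in RPMI-8226. The groups did not overlap, but the difference of 0.38 (95% interval -0.25 to 1.01) did not pass (adjusted p = 0.361). In MM.1S it read 1.30 and 1.36 with DMSO, 0.99 and 1.15 with GSK126, 1.82 and 1.84 with UNC0638, and 1.50 and 1.34 with the combination. UNC0638 alone was highest there, with a rise of 0.50 (SE 0.10, adjusted p = 0.0146). That call was lost without DMSO replicate 1 (0.47) or 2 (0.53), or UNC0638 replicate 1 (0.51) or 2 (0.49). The combination gave 0.09 (adjusted p = 0.484) and overlapped DMSO.

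SPIB, its relative in germinal centre and plasmacytoid cells, rose in both lines. The probe at chr19:50932037-50932096 (GRCh37, plus strand) read -0.98 and -1.32 with DMSO in MM.1S, 0.31 and 0.11 with GSK126, -0.47 and -0.46 with UNC0638, and 0.09 and -0.29 with the combination. Every treated array lay above both DMSO arrays, and GSK126 alone gave the highest levels. The rises were 1.36 with GSK126 (SE 0.17, adjusted p = 0.0127), 0.68 with UNC0638 (adjusted p = 0.0308) and 1.05 with the combination (SE 0.17, adjusted p = 0.00341). The GSK126 call was lost without DMSO replicate 2 (1.19) or GSK126 replicate 1 (1.26), and without the filter on dim probes. The UNC0638 call was lost without DMSO replicate 2 (0.52), UNC0638 replicate 1 (0.69) or UNC0638 replicate 2 (0.67). In RPMI-8226 it read -3.11 and -2.39 with DMSO, -1.67 and -1.76 with GSK126, -2.71 and -2.06 with UNC0638, and -1.58 and -1.27 with the combination. GSK126 and the combination lay above both DMSO arrays, and UNC0638 overlapped them. The combination rise of 1.32 (SE 0.31, adjusted p = 0.0397) was lost without DMSO replicate 1 (0.96), GSK126 replicate 1 or 2 (1.32 in each case), or combination replicate 1 or 2 (1.47 and 1.17), and the value was 0.67 after normexp (adjusted p = 0.0357).

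BCL6, the germinal centre repressor, rose with each treatment in MM.1S and had the largest fold of the called genes with the combination there. At chr3:187439641-187439700 (GRCh37, minus strand) it read -5.41 and -4.59 with DMSO, neither above background. It read -1.70 and -1.60 with GSK126, -2.24 and -1.85 with UNC0638, and 0.12 and 0.46 with the combination, all above background. The single inhibitors lay close together and the combination stood above both. BCL6 was at least 8.34-fold higher with GSK126 (adjusted p = 0.00519), at least 6.36-fold with UNC0638 (adjusted p = 0.0024) and at least 32.1-fold with the combination (adjusted p = 1.55e-04). In RPMI-8226, where BCL6 was above background from the start, it read -2.71 and -2.49 with DMSO, -1.21 and -0.86 with GSK126, -1.84 and -1.99 with UNC0638, and -0.63 and -0.55 with the combination. The order was the same as in MM.1S and no groups overlapped. The combination rise was 2.01 (SE 0.17, adjusted p = 0.00138), which is 4.04-fold, and UNC0638 alone gave 0.69 (adjusted p = 0.213). After normexp the combination rise was 1.24 in RPMI-8226 (adjusted p = 4.93e-04) and 2.84 in MM.1S (adjusted p = 2.37e-07), where the value fitted without it was 5.29. The single inhibitors in MM.1S then gave 1.32 (GSK126) and 1.05 (UNC0638), beside 3.35 and 2.96 without it. In RPMI-8226, GSK126 alone gave a BCL6 rise of 1.56 (SE 0.17, adjusted p = 0.0283). That call was lost without any 1 of the 8 RPMI-8226 arrays, at differences between 1.39 and 1.74. The same rise was 0.92 after normexp (adjusted p = 0.0179).

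BACH2, which represses PRDM1 in B cells, rose in both lines. In RPMI-8226 its main probe, chr6:90636605-90636664 (GRCh37, minus strand), read -4.14 and -3.95 with DMSO, -3.52 and -3.03 with GSK126, -3.66 and -3.83 with UNC0638, and -2.61 and -2.54 with the combination. The combination lay above all other arrays, and the rise was 1.48 (SE 0.20, adjusted p = 0.00654), which is 2.78-fold, or 0.53 after normexp (adjusted p = 0.0255). GSK126 gave 0.77 (adjusted p = 0.219) and UNC0638 0.30 (adjusted p = 0.744). In MM.1S it read -1.09 and -0.96 with DMSO, -0.50 and -0.53 with GSK126, -0.74 and -1.01 with UNC0638, and -0.55 and -0.62 with the combination. GSK126 and the combination lay above DMSO by 0.51 (adjusted p = 0.0498) and 0.44 (SE 0.11, adjusted p = 0.0179). The GSK126 call was lost without any 1 of the 8 arrays (0.45 to 0.58) and with the replicate number as a block (adjusted p = 0.0547). It was also lost after quantile normalization, with the series table deposited by the authors, and without the filter on dim probes. The same held with only the groups compared and in the fit over 16 arrays. The combination call was lost without DMSO replicate 1 (0.38), combination replicate 1 (0.41) or combination replicate 2 (0.48), and without the filter on dim probes. As the mean over probes it was 0.71 (limma adjusted p = 0.00721). The second probe, chr6:90641210-90641269, rose by 0.97 with the combination in MM.1S (SE 0.20, adjusted p = 0.00809). This was 0.43 after normexp (adjusted p = 0.00528), and the call was lost in a single fit over all 16 arrays (adjusted p = 0.0706). The second probe was above background on 1 of 8 arrays in RPMI-8226.

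ID3, the inhibitor of E proteins, followed GSK126. At chr1:23885666-23885725 (GRCh37, minus strand) it read 0.12 and -0.08 with DMSO in MM.1S, 2.57 and 2.11 with GSK126, 0.97 and 1.04 with UNC0638, and 2.71 and 2.12 with the combination. GSK126 and the combination overlapped and both lay above UNC0638, which lay above DMSO. The rises were 2.32 with GSK126 (SE 0.23, adjusted p = 0.00738), 0.99 with UNC0638 (adjusted p = 0.0255) and 2.39 with the combination (SE 0.23, adjusted p = 6.07e-04). The UNC0638 call was lost without DMSO replicate 1 or 2 (1.09 and 0.89) or UNC0638 replicate 1 or 2 (1.02 and 0.95). In RPMI-8226 it read 1.10 and 1.32 with DMSO, 2.89 and 2.48 with GSK126, 1.40 and 1.74 with UNC0638, and 3.27 and 3.40 with the combination. No groups overlapped, and the combination rise was 2.13 (SE 0.20, adjusted p = 0.00197), which is 4.37-fold. GSK126 alone gave 1.48 (SE 0.20, adjusted p = 0.0425), again lost without any 1 of the 8 arrays (1.28 to 1.68).

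The 150 bases before the first start of these 4 genes, the ones called higher with the combination in both lines, are shown with each CpG in capitals, since they rose together. They differed widely in CpG content. Over the whole window BACH2 held 45 CpG, ID3 27, BCL6 12 and SPIB 11, beside a median of 14 over all windows with quartiles of 4 and 28. The EBF1 window held 8, and that of PAX5, which was at background throughout, held 30. The PAX5 count thus lay between those of ID3 and BACH2.
BACH2, chr6:90296844-90296993, minus strand: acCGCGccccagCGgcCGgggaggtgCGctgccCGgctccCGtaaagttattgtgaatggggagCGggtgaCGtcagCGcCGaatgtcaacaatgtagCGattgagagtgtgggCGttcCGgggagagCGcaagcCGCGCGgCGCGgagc
ID3, chr1:23559502-23559651, minus strand: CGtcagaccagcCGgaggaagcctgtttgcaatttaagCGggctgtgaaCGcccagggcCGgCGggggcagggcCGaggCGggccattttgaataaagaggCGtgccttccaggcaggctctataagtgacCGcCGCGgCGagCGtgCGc
BCL6, chr3:187745469-187745618, minus strand: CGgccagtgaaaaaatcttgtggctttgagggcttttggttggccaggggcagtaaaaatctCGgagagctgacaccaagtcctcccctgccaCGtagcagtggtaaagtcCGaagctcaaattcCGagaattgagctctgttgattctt
SPIB, chr19:50418788-50418937, plus strand: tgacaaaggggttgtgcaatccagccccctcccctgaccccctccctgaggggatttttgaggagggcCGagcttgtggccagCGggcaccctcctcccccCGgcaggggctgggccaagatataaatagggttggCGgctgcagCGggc

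MITF rose in RPMI-8226 and not in MM.1S. Its main probe, chr3:70014715-70014774 (GRCh37, plus strand), read 1.55 and 1.21 with DMSO in RPMI-8226, 2.22 and 2.29 with GSK126, 1.70 and 1.99 with UNC0638, and 2.30 and 2.52 with the combination. All treated arrays lay above DMSO. The combination rise was 1.03 (SE 0.18, adjusted p = 0.0183), which is 2.04-fold, and it was lost without DMSO replicate 2 (0.86) or combination replicate 1 (1.14) or 2 (0.92). GSK126 gave 0.87 (adjusted p = 0.145). A second probe, chr3:70017269-70017328, gave 1.01 (adjusted p = 0.0245), and that call was lost without DMSO replicate 1 or 2 (1.06 and 0.97), UNC0638 replicate 1 or 2 (1.01 in each case) or combination replicate 2 (0.79). In MM.1S the main probe read 0.87 and 1.26 with DMSO and 0.79 and 1.17 with the combination, which overlapped (difference -0.09, 95% interval -0.60 to 0.43, adjusted p = 0.746). The third probe, chr3:69987007-69987066, fell there, by 1.01 with UNC0638 (adjusted p = 0.0209) and by 0.75 with the combination (adjusted p = 0.0315). The UNC0638 call was lost without DMSO replicate 1 or 2 (-0.93 and -1.10) or UNC0638 replicate 1 or 2 (-0.92 and -1.11), and the combination call without DMSO replicate 1 or 2 (-0.66 and -0.83) or combination replicate 1 (-0.45). After normexp these values were -0.30 and -0.19, the latter not called. In RPMI-8226 the third probe gave 0.50 with the combination and did not pass (adjusted p = 0.318). The MITF probes thus differed in MM.1S.

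The single inhibitors called fewer of these genes than the combination. GSK126 alone called 2 of 8 in RPMI-8226, BCL6 and ID3, with 0.599% of all probes tested called, and 4 of 9 in MM.1S, BCL6, ID3, SPIB and BACH2, with 7.58% of all probes called. UNC0638 alone called 0 of 8 in RPMI-8226, where 0.634% of all probes passed limma's adjusted test and 2226 probes (9.6%) had an unadjusted p under 0.05. BCL6 and MITF were the 2 members among those at their main probes, at 0.69 and 0.46. In MM.1S it called 5 of 9, with 29.3% of all probes called, BCL6, ID3, SPIB and SPI1 higher and PRDM1 lower. The contrasts with DMSO share their DMSO arrays, so their values are not independent of each other.

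**Figure D4:**
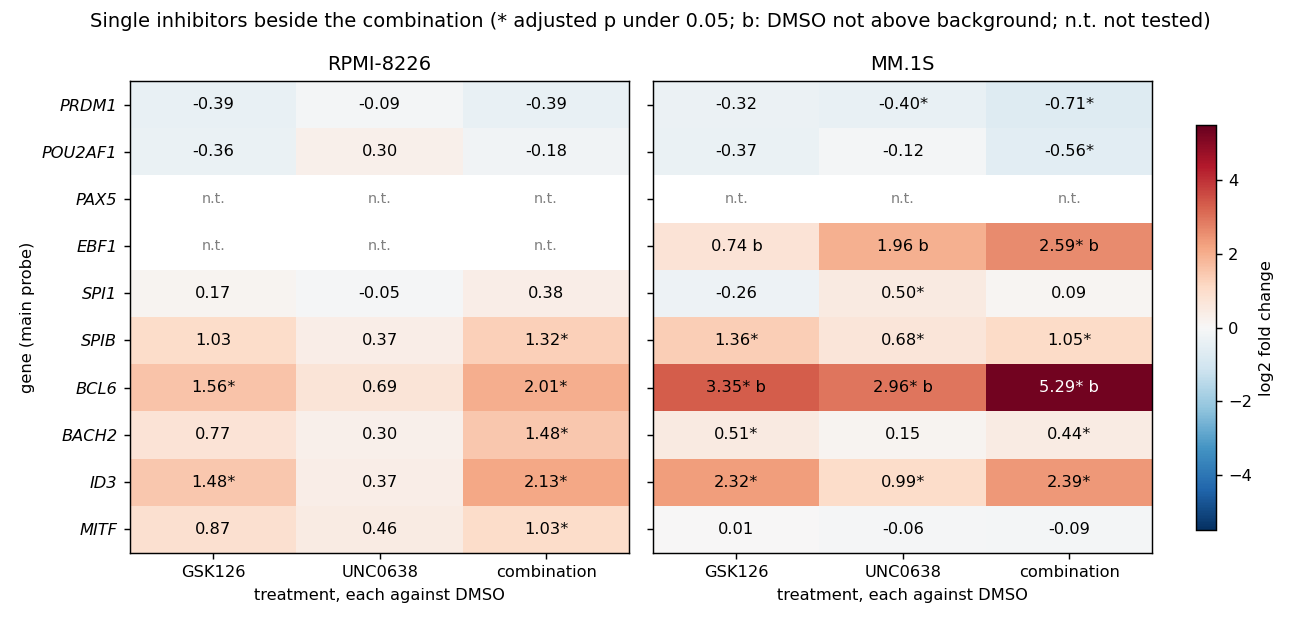
Difference from DMSO on the log2 scale at the main probe of each gene, for GSK126, UNC0638 and the combination, in RPMI-8226 (left) and MM.1S (right). Red is higher and blue lower than DMSO, a star marks an adjusted p under 0.05, and b marks a fitted value, not a bound, for which DMSO was not above background. In MM.1S, BCL6 is 3.35 with GSK126, 2.96 with UNC0638 and 5.29 with the combination, and PRDM1 is -0.32, -0.40 and -0.71.

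The combination was also set against each single inhibitor. Against GSK126 in RPMI-8226, 0 of 8 genes passed, with 2.55% of all probes called. In the limma fit, 3 members had an unadjusted p under 0.05 there, BACH2, ID3 and BCL6, at 0.70, 0.65 and 0.45, as did 4188 (18.1%) of all probes. Against UNC0638 there, BACH2, BCL6 and ID3 were higher by 1.18, 1.33 and 1.76 (adjusted p = 0.0303, 0.0129 and 0.00851), with 3.39% of all probes called. Leaving out UNC0638 or combination replicates ended these calls, for BACH2 and BCL6 with any 1 of those 4 arrays (1.09 to 1.26 and 1.25 to 1.40), for BACH2 also without DMSO replicate 1 or 2 (1.18 in each case) and after normexp (0.44), and for ID3 with UNC0638 replicate 1 (1.59) or combination replicate 1 (1.82). In MM.1S, with 37.1% of all probes called against GSK126, BCL6 was higher with the combination by 1.94 (adjusted p = 0.00495), SPI1 was higher by 0.35 (adjusted p = 0.0355) and PRDM1 differed by -0.38 (adjusted p = 0.0384). BCL6 held in all 8 fits that left out an array, while SPI1 and PRDM1 were lost in 7 and 6 of them, at differences of 0.26 to 0.43 and -0.41 to -0.36. Against UNC0638, with 13.5% of all probes called, BCL6 was higher by 2.33 (adjusted p = 0.0133), ID3 was higher by 1.41 (adjusted p = 0.0217) and SPI1 differed by -0.41 (adjusted p = 0.0445). BCL6 was lost without UNC0638 replicate 1 (2.14) or combination replicate 2 (2.17), ID3 without UNC0638 replicate 1 (1.37) or 2 (1.44) or combination replicate 2 (1.70), and SPI1 without any 1 of the 8 arrays (-0.49 to -0.33). In MM.1S, BCL6 was thus higher with the combination than with either inhibitor alone, while SPI1 lay between them.

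The response to the combination differed between the lines for 3 of the 9 genes tested, in a fit over all 16 arrays in which 13.3% of all 26928 probes were called. BCL6 rose more in MM.1S, with a difference of responses, RPMI-8226 minus MM.1S, of -3.27 (SE 0.36, adjusted p = 3.86e-04), where the MM.1S response starts from a level not above background. After normexp it was -1.60 (adjusted p = 4.48e-05). BACH2 rose more in RPMI-8226, by 1.03 (SE 0.23, adjusted p = 0.0172). That call was lost without MM.1S DMSO replicate 2 (0.97) or combination replicate 2 (1.00), and at the second probe the difference was 0.44 (adjusted p = 0.643). It was 0.14 after normexp background correction (adjusted p = 0.585) and 0.74 as the mean over kept probes (adjusted p = 0.144). MITF differed by 1.12 (SE 0.29, adjusted p = 0.0318), by 1.21 at its second probe (adjusted p = 0.012), and by 1.25 at the third probe, which did not pass (adjusted p = 0.0788). The main probe's call was lost without RPMI-8226 DMSO replicate 2 (0.95) or combination replicate 2 (1.00), or MM.1S DMSO replicate 2 (0.92) or combination replicate 1 (0.93). EBF1 gave -2.78 (adjusted p = 0.0564). For PRDM1 the difference was 0.32 (95% interval -0.23 to 0.87) and for POU2AF1 0.37 (-0.55 to 1.29), so the fall of the plasma cell factors was not shown to differ between the lines.

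**Figure D5:**
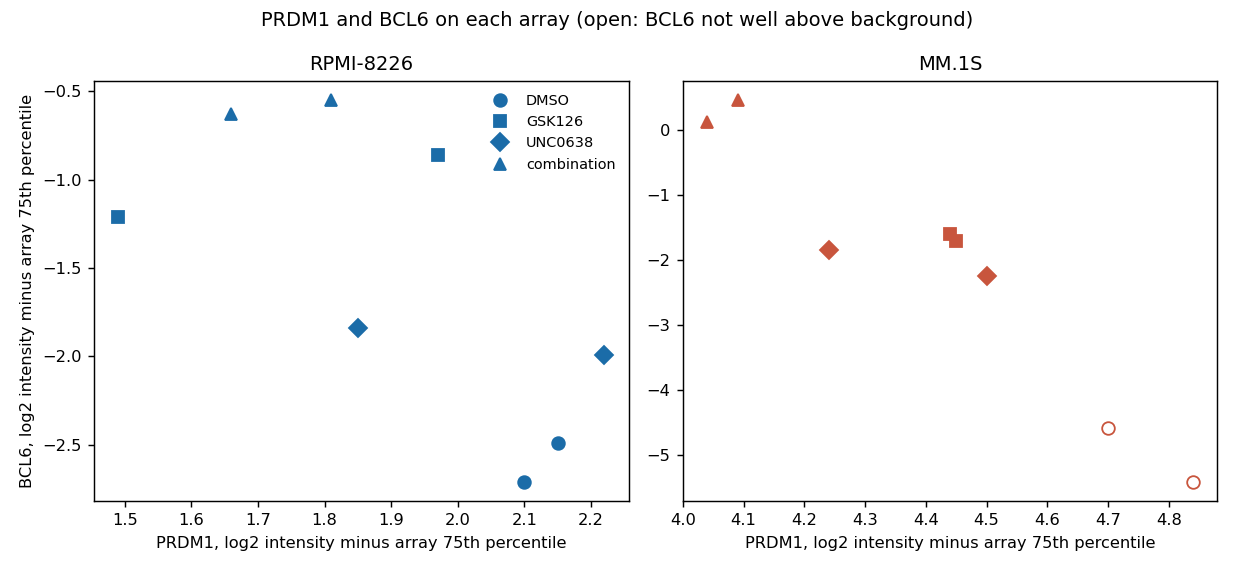
PRDM1 (horizontal) against BCL6 (vertical) on each array, both as log2 intensity minus the 75th percentile of the array at the main probe, in RPMI-8226 (left) and MM.1S (right). Shapes are treatments, and open points are arrays with BCL6 not well above background. In MM.1S the combination arrays have the lowest PRDM1 (4.04 and 4.09) and the highest BCL6 (0.12 and 0.46).

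Set against each other after subtraction of the line means, PRDM1 correlated with BCL6 at r = -0.83 over the 16 arrays, with ID3 at -0.74, SPIB at -0.57, BACH2 at -0.50, MITF at -0.35 and SPI1 at -0.11. For POU2AF1 the values were -0.58 with ID3, -0.50 with BCL6, -0.35 with SPIB, -0.29 with BACH2, -0.24 with MITF and 0.30 with SPI1, and 0.76 with PRDM1. SPIB and ID3 correlated at 0.94. These are descriptions, since the points share the 8 groups and the treatments set most of their spread. Probes that had a symbol and were above background on all 16 arrays numbered 17331. Among them, the genes whose deviations were most like PRDM1 were LOC100652948 (r = 0.955), PIH1D1 (0.938), GCN1L1 (0.935), YY2 (0.934) and CEP76 (0.932). For POU2AF1 they were ZNF215 (0.903), ATP5S (0.899), MAX (0.89), LOC100306951 (0.889) and OPA3 (0.888).

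Other genes of the plasma cell programme were called in both directions with the combination. Of 24 listed, 22 were tested in RPMI-8226, of which 2 were called higher and 6 lower (median -0.46, beside -0.13 over all probes). In MM.1S 23 were tested, of which 3 were called higher and 12 lower (median -0.38, beside -0.12). Among all probes tested, 7.2% were called higher and 5.15% lower in RPMI-8226, and 22.2% higher and 31.7% lower in MM.1S. After quantile normalization the MM.1S counts were 6 and 6 and the median 0.03, so this list had no direction in MM.1S under that scaling. With the percentile over commonly detected probes, 4 were called higher and 9 lower there (median -0.2, beside 0.07 over all probes). After normexp, 4 were called higher and 14 lower (median -0.39, beside -0.08). IRF4, the factor that drives PRDM1, fell in both lines, from 2.89 and 2.52 to 0.85 and 1.16 in RPMI-8226 (adjusted p = 0.00316) and from 4.21 and 4.14 to 3.05 and 2.93 in MM.1S (adjusted p = 7.34e-04). TNFRSF17, the survival receptor BCMA, fell by 2.55 in RPMI-8226 (adjusted p = 0.0141), together with TXNDC5, a disulfide isomerase of the secretory pathway, by 1.36 (adjusted p = 0.0171). SLAMF7 and BMI1 rose there, by 4.89 and 1.10 (adjusted p = 0.00138 and 0.0128). In MM.1S, KLF2 and TNFRSF13B (TACI) fell by 1.83 and 1.26 (adjusted p = 2.18e-04 and 7.2e-04). ZBTB20 rose at least 7.1-fold (adjusted p = 4.47e-04), and BMI1 and CD28 rose by 0.78 and 0.58 (adjusted p = 0.00251 and 0.00295).

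The B cell programme, genes that B cells use and plasma cells turn down, was called in 1 direction with the combination. Of 30 listed, 21 were tested in RPMI-8226 with 5 called higher and 0 lower (median 0.87), and 23 in MM.1S with 17 called higher and 0 lower (median 1.33). Over all probes, 7.2% and 22.2% were called higher in these contrasts. Of the called genes, 2 of 5 and 3 of 17 were above background on no DMSO array, so that they could only be called higher, and the counts and medians describe the genes that passed the filter. With UNC0638 alone in MM.1S 16 were called higher, with 12.8% of all probes called higher, and with GSK126 alone 5, with 5.19% of all probes. MS4A1, which encodes CD20, was not above background with DMSO and rose at least 16-fold in RPMI-8226 (adjusted p = 5.63e-04) and at least 2.74-fold in MM.1S (adjusted p = 3.53e-04). FCRLA, an Fc receptor-like protein of germinal centre B cells, rose by 5.38 in RPMI-8226 (adjusted p = 0.0212) and by 3.56 in MM.1S (adjusted p = 7.94e-05). CCR7, the lymph node homing receptor, rose at least 7.06-fold in RPMI-8226 (adjusted p = 0.00388), and BANK1, a B cell receptor scaffold, at least 2.86-fold in MM.1S (adjusted p = 0.0015). These rises occurred while PAX5 stayed at background.

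Other B lineage transcription factors were called in both directions. Counted in either direction, their shares were near those of all probes (12.3% in RPMI-8226 and 53.9% in MM.1S). The directions differed from those of all probes in MM.1S. More of the list was called higher than lower there, while 22.2% of all probes were called higher and 31.7% lower. In RPMI-8226, 7.2% of all probes were called higher and 5.15% lower. Of 30 listed, 26 were tested in RPMI-8226 with 3 called higher and 1 lower (median 0.12), and 29 in MM.1S with 13 called higher and 4 lower (median 0.16). In RPMI-8226, BATF, MEF2C and IKZF2 rose by 1.62, 1.38 and 0.66 (adjusted p = 0.00774, 0.0106 and 0.0303), and IRF8 fell by 1.13 (adjusted p = 0.00784). In MM.1S, KLF4, SOX4 and ID2 rose by 2.99, 2.42 and 1.71 (adjusted p = 2.15e-04, 0.00351 and 0.0019). MYB, NFIL3 and FOXO1 fell there by 2.17, 0.94 and 0.61 (adjusted p = 4.33e-04, 7.63e-04 and 0.0123).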

How the data were processed

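Gene expression was measured on 16 single-colour arrays. The authors scanned them and deposited the output of Agilent Feature Extraction (version 10.7), in which each spot has a background-subtracted intensity on a linear scale. A series table deposited by the authors holds the same intensity (99.9958% of 939472 values equal to 3 digits). The paper's methods name no normalization or test for the arrays.

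After removal of control and outlier spots, each array's 75th percentile was subtracted from its log2 intensities and replicate spots were averaged. Testing was limited to probes above background on both arrays of any group in the fit. Fits by limma (version 3.58.1, in R 4.3.3) used the 8 arrays of a line, or all 16 for line differences. A threshold of 0.05 was used. Members, lists and tests were chosen with earlier results of these data known. The named genes are all members, the 3 largest calls each way per list and line, and the 5 most alike PRDM1 and POU2AF1. The fits were tested on simulated data. Dim probes and arrays per group (2) limit the precision.

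Alternatives were quantile normalization, a percentile over commonly detected probes, normexp (offset 50), no filter or a stricter filter, the series table, an intensity trend, other sets of arrays, the mean over probes, leaving out single arrays, and blocking on replicate number. Same-numbered arrays deviated together in RPMI-8226 (r across probes 0.254 to 0.415 in 6 of 6 pairs of groups), where the numbers were taken to pair samples. They did so less in MM.1S (0.085 to 0.225). Replicate number entered only the alternative with a block, so the SE and adjusted p of the main fits ignored this pairing.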

Additional observations from a re-analysis of the deposited data

Results flagged for a closer look

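The response to the combination differed between the lines, by the test of the difference itself, for 3 identity factors. As RPMI-8226 minus MM.1S on the log2 scale, the difference was -3.27 for BCL6, 1.03 for BACH2 and 1.12 for MITF (limma adjusted p = 3.86e-04, 0.0172 and 0.0318). For BCL6 the MM.1S response starts from a level not above background, and the difference was smaller after normexp. The BACH2 difference was 0.44 at its second probe (limma adjusted p = 0.643), and was not called after normexp or as the mean over kept probes. The BACH2 and MITF calls were lost without some single arrays.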

How the results depend on the processing

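The alternatives gave 712 values for 37 member results, the combination against DMSO at main probes and others called in the main fits. Single-inhibitor results not called in the main fits were left out, so calls gained there are not counted. PRDM1 and POU2AF1, for example, were called lower with GSK126 in MM.1S under an intensity trend and robust fit. Of the 712 values, 575 kept their direction and side of the threshold, and 7 that were not called changed sign. Another 129 kept the direction but lost the call. The 1 called value that reversed was POU2AF1 with the combination in MM.1S, at 0.29 as the mean over kept probes. The number of members called with GSK126 in RPMI-8226 (2) became 1 after quantile normalization, 0 without the filter on dim probes, 0 with only the groups compared and 4 in the fit over 16 arrays, and with GSK126 in MM.1S (4) it became 2 without the filter. For the combination in RPMI-8226 (5) it was 3 without the filter and 3 with only the groups compared. For UNC0638 in MM.1S (5) it was 1 without the filter and 3 in the fit over 16 arrays. For the combination against GSK126 it was 1 without the filter in MM.1S (3) and 1 in the fit over 16 arrays in RPMI-8226 (0). Against UNC0638 in MM.1S (3) it was 1 without the filter, 5 with an intensity trend and robust fit, and 0 with only the groups compared. Without the filter more probes were tested, and with only the groups compared fewer arrays gave the spread, and otherwise the cause was not tested. The number of all probes called changed with the setting as well. With GSK126 in RPMI-8226 it was 139 of 23196 in the main fit and 86 after quantile normalization. Without the filter it was 20 of 50599, with only the groups compared 27, and in the fit over 16 arrays 680. The changes in member counts are thus not particular to the members. With each array left out in turn, the member counts against DMSO ran from 0 to 0 (GSK126), 0 to 0 (UNC0638) and 3 to 5 (combination) in RPMI-8226 and from 2 to 3, 1 to 4 and 5 to 7 in MM.1S. For the combination against GSK126 and against UNC0638 they ran from 0 to 0 and 0 to 3 in RPMI-8226 and from 1 to 2 and 0 to 2 in MM.1S, and for the line difference from 1 to 4. With the replicate number as a block the count with GSK126 in MM.1S was 3, since BACH2 (0.51) had an adjusted p of 0.0547, and no other call at a main probe changed. Genes near background, PAX5, EBF1, BCL6 with DMSO in MM.1S and BACH2 with DMSO in RPMI-8226, are limited by signal over background.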
